A study of Mus musculus with 8 samples.

Results

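Described here are 10 genes of developing T cells, Rag1, Rag2, Dntt, Ptcra, Cd3e, Cd4, Cd8a, Cd8b1, Lck and Themis, as they were measured in RNA of mouse thyroid glands. They were chosen by name after earlier results of these arrays, the signals of exposed and control thyroids, were known, so their signals and the differences between the groups are given as a description without a test. They are 10 of 21021 gene names that have a probe for a RefSeq transcript, and they were read by 15 of 55681 probes, which occupy 44 of 59305 spots.

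The study asked what 99mTcO4- (pertechnetate), an emitter of low-energy electrons that the thyroid takes up, does to the gland. Thyroids came from female Balb/c mice, 8 weeks old, of which 4 were controls and 4 had received an absorbed dose of 30 Gy to the thyroid from 99mTcO4-, with RNA taken 24 hours after administration. The results text of the study calls the controls untreated, while a legend mentions saline, and no genetic change was made in either group. Each thyroid was hybridised to its own one-colour Agilent array, and the arrays are called controls 1 to 4 and S539, S588, S589 and S590 for the exposed mice. A single slide carried the 8 arrays and was scanned once. The exposed thyroids held its first positions and the controls those after, so that position and exposure cannot be told apart. Between 60.5% and 77.3% of the spots were well above background on an array, and no spot was saturated. Thyroglobulin (Tg), the scaffold protein of thyroid hormone, had a log2 signal of 18.70 to 19.07 over the 8 arrays, and 9 of 10 thyrocyte markers were well above background on every array.

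A T cell is made in the thymus, a gland at the base of the neck and in the upper chest whose early tissue arises beside that of the parathyroids. There, Rag1 and Rag2 cut the receptor genes, Dntt (terminal deoxynucleotidyl transferase) adds bases at the joins, and a first receptor chain pairs with Ptcra before thymocytes turn on both Cd4 and Cd8, the coreceptors, and are selected. Mature T cells outside the thymus keep Cd3e, Lck and 1 of the coreceptors, but no longer use Rag1, Rag2, Dntt or Ptcra.

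Every value below is a log2 signal after quantile normalization between arrays, averaged over the spots of a probe. A step of 1 stands for a doubling, and levels of different probes are not comparable, since each probe binds with its own strength. A gene is read by its RefSeq probe of highest mean signal unless another probe is named, and a probe not well above background has only an upper bound. Of the 10 genes, 4 (Dntt, Cd3e, Cd4 and Lck) were well above background on all 8 arrays, and the other 6 on some of them. In bulk RNA, fewer cells of a type and less RNA in each cell cannot be told apart.

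Of the 15 probes, 4 begin inside the coding part of their transcript, and their bases are shown because each reads another stretch of the message than the gene's other probe, so that the same mouse has 2 readings of the gene. Each leaves at least 1 reading frame without a stop codon. They are printed in lower case, with no part marked, and their positions are those of the array files (mm9): chr10:28502071-28502130 (+ strand) for Themis, chr6:71323885-71323944 (+) for Cd8a, chr2:101470723-101470782 (+) for Rag2 and chr6:124817706-124817765 (- strand) for Cd4.
Themis: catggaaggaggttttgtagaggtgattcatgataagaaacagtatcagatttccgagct
Cd8a: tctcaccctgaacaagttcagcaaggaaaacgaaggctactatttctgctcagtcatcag
Rag2: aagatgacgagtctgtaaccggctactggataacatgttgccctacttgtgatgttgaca
Cd4: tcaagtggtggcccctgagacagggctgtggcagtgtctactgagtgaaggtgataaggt

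Controls 1 and 2 carried strong signals of nearly all of the 10 genes, while controls 3 and 4 resembled the exposed thyroids. Both were the highest of the 8 arrays for 9 of the 10 genes, the exception being Themis, against 5.7% of all 21021 genes, a share from which nothing is read here because the members were picked with these values known. The mean exposed signal was below the mean control signal for 9 genes and above it for 1, with a median log2 difference of -1.82 (range -3.62 to 0.20) beside a median of -0.03 over all genes. The measured signals of the groups overlapped at each of the 15 probes. No share over all probes is given, and several of these probes were not well above background on most arrays, so nothing is read from that count. None of the 10 genes passed an adjusted p of 0.05 in the limma fit over all probes, which called 1.2% of all genes in either direction and 0.295% of them as lower in exposed thyroids. Nothing is read from this either, since the members were picked with these values known.

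**Figure D1:**
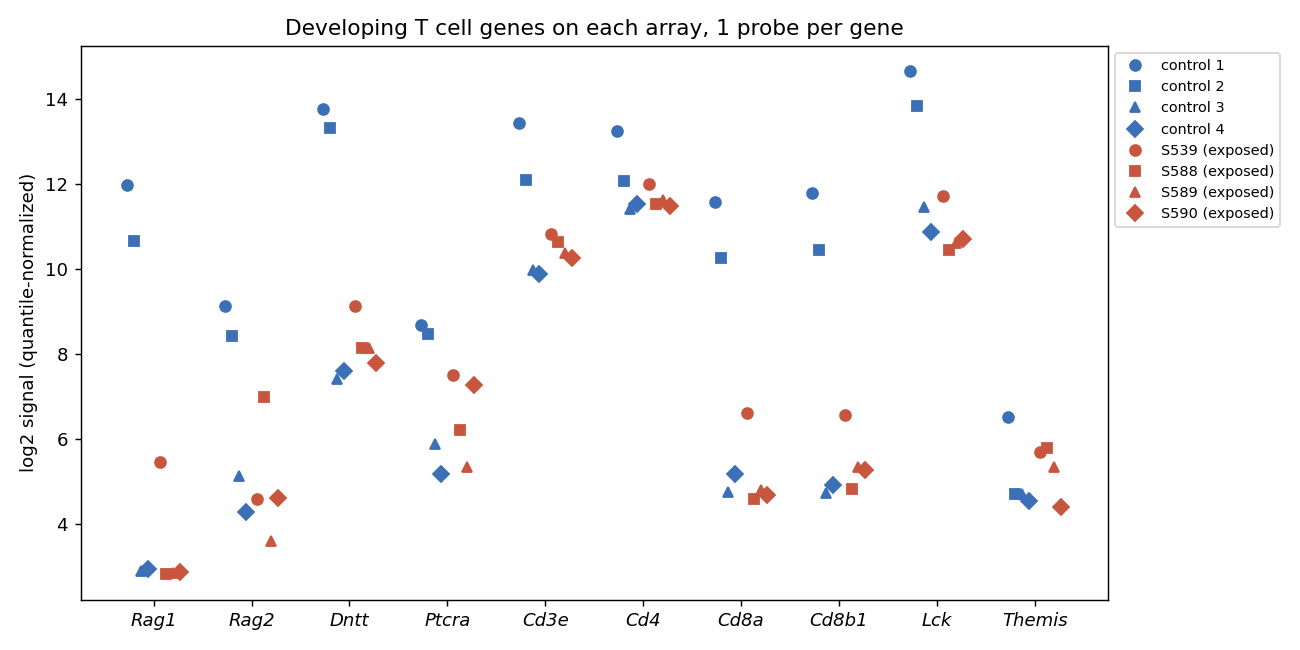
Log2 signal (vertical axis, quantile-normalized) of the 10 genes, 1 probe each, with 1 point per array: blue for the 4 controls, red for the 4 exposed thyroids, and a marker shape for each array. Controls 1 and 2 stand above the other 6 arrays for 9 genes and S539 is the highest exposed array for 8; heights of different genes are not comparable.

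Rag1 and Rag2 form the recombinase that cuts the T and B cell receptor genes. Rag1 had log2 signals of 11.96, 10.64, 2.89 and 2.92 in controls 1 to 4, and of 5.45, 2.80, 2.84 and 2.86 in S539, S588, S589 and S590. It was well above background in controls 1 and 2 and in S539, and on no other array. The control mean was 7.10 ± 4.87 (SD, n = 4) and the exposed mean 3.49 ± 1.31 (SD, n = 4), a difference of -3.62 (SE 2.21). The measured signals of the controls spanned 9.06 log2 units, wider than the 3.62 between the groups' means. The second Rag1 probe had signals of 6.72, 5.24, 3.09 and 3.32 in the controls and of 3.41, 2.96, 3.01 and 4.49 in the exposed thyroids, again highest in controls 1 and 2, but with S590 and not S539 as the highest exposed array. That S590 value was the mean of spots at 3.07 and 5.92.

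Rag2, whose coding probe is printed above, had signals of 9.13, 8.41, 5.13 and 4.28 in the controls and of 4.58, 6.97, 3.58 and 4.60 in S539, S588, S589 and S590. Controls 1 and 2 were the highest arrays, S588 came next, and S539 did not stand out (difference -1.81, SE 1.23). On the other Rag2 probe, which was well above background in control 1 alone, the controls had 5.61, 4.74, 3.29 and 3.67 and the exposed thyroids 3.25, 3.63, 3.37 and 3.60. Rag1 and Rag2 are neighbours on chromosome 2, with 6.3 kb between their nearest probes.

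Dntt, which adds untemplated bases where receptor segments are joined, was well above background on all 8 arrays. Its signals were 13.75, 13.31, 7.41 and 7.58 in controls 1 to 4 and 9.13, 8.14, 8.13 and 7.78 in S539, S588, S589 and S590. Control 1 was 80.6-fold above control 3 on the linear scale, and all exposed thyroids were above controls 3 and 4. The exposed mean was 8.29 ± 0.58 and the control mean 10.51 ± 3.49 (SD, n = 4 each), a difference of -2.22 (SE 1.55).

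Ptcra, the surrogate alpha chain of the pre-T cell receptor, had signals of 8.68, 8.47, 5.88 and 5.17 in the controls and of 7.49, 6.20, 5.33 and 7.27 in the exposed thyroids. Controls 1 and 2 differed by only 0.22, and S539 and S590 lay closer to them than controls 3 and 4 did. The difference between the groups was -0.48 (SE 0.90). Cd3e, a signalling chain that every T cell keeps, had signals of 13.43, 12.08, 9.97 and 9.88 in the controls and of 10.81, 10.63, 10.36 and 10.25 in the exposed thyroids. Each exposed array lay between controls 1 and 2 on the upper side and controls 3 and 4 on the lower, and the difference was -0.83 (SE 0.77).

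The coreceptor genes did not have the same spread. Cd8a, the alpha chain of the coreceptor that binds MHC class I, had signals of 11.56, 10.25, 4.74 and 5.16 in the controls and of 6.61, 4.57, 4.78 and 4.68 in the exposed thyroids. Cd8b1, its beta chain, had 11.77, 10.44, 4.71 and 4.90 in the controls and 6.55, 4.82, 5.32 and 5.26 in the exposed thyroids. In both, controls 1 and 2 were far above the rest, and S539 came next. The differences were -2.77 (SE 1.59) for Cd8a and -2.47 (SE 1.65) for Cd8b1, and the nearest probes of these neighbouring genes on chromosome 6 are 36.6 kb apart. The coding Cd8a probe shown above gave 9.64, 8.83, 4.55 and 4.64 in the controls and 5.09, 5.05, 4.50 and 5.31 in the exposed thyroids, so controls 1 and 2 were high on both probes, while S539 was not the highest exposed array on this probe.

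Cd4, the coreceptor that binds MHC class II, which some macrophages and dendritic cells also make, varied least of the 3. Its signals were 13.24, 12.07, 11.41 and 11.51 in the controls and 12.00, 11.51, 11.61 and 11.48 in the exposed thyroids. Control 2 and S539 were alike, and the difference of -0.41 (SE 0.40) was -0.02 without control 1. On the coding Cd4 probe the controls had 7.40, 6.42, 5.71 and 6.10 and the exposed thyroids 6.21, 6.21, 5.63 and 5.83, with the same 2 controls on top and a difference of -0.44 (SE 0.36).

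Lck, the kinase that the coreceptors carry to the receptor, had signals of 14.65, 13.82, 11.45 and 10.86 in the controls and of 11.71, 10.45, 10.61 and 10.70 in the exposed thyroids. Control 1 was 9.21-fold above control 3, and S539 alone of the exposed arrays was above control 3 (difference -1.82, SE 0.84). Themis, which tunes receptor signalling while thymocytes are selected, gave a different picture on each probe. Its coding probe, which had the higher mean signal over the 8 arrays and so stands for the gene here, had 6.50, 4.69, 4.70 and 4.52 in the controls and 5.69, 5.78, 5.33 and 4.39 in the exposed thyroids (difference 0.20, SE 0.51), with control 1 apart and control 2 not. The coding probe was well above background in only 1 control and in 3 exposed thyroids, so its low signals have no order. Its other probe had 9.55, 7.98, 3.68 and 4.13 in the controls and 4.25, 3.01, 3.18 and 3.21 in the exposed thyroids. That probe was well above background in controls 1 and 2 and on no other array. Controls 3 and 4 therefore have no order against the exposed thyroids, and the difference between the groups has no exact size. The measured means of this probe were 6.33 ± 2.89 and 3.41 ± 0.57 (SD, n = 4 each).

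**Figure D2:**
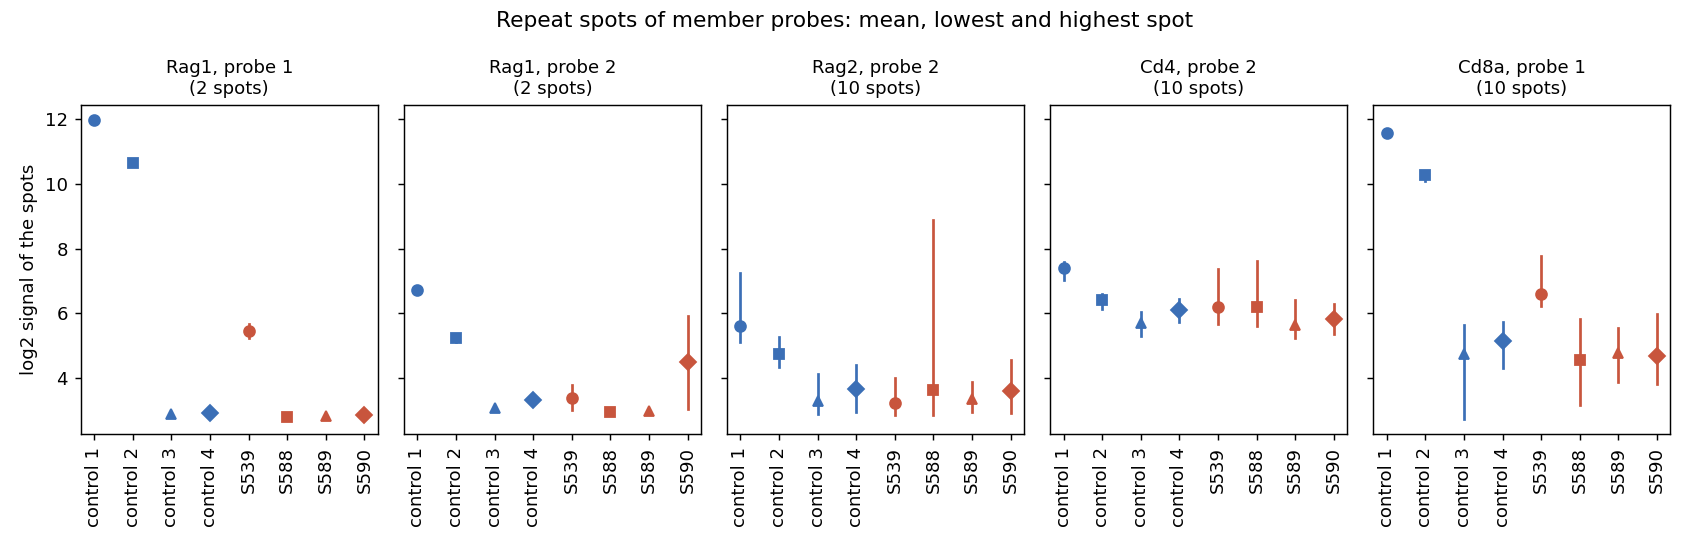
Log2 signal of repeat spots (vertical axis) on each array (horizontal axis) for the 5 member probes spotted more than once, numbered in order of mean signal: the marker is the mean and the line runs from the lowest to the highest spot. The 10 Cd8a spots of controls 1 and 2 lie within 11.44 to 11.64 and 10.08 to 10.35, while 1 spot at 8.89 lifts Rag2 in S588.

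Several probes were spotted more than once on each array, so the spread between spots could be set beside the spread between mice. The main Cd8a probe has 10 spots, which ran from 11.44 to 11.64 in control 1, from 10.08 to 10.35 in control 2, from 6.23 to 7.76 in S539 and from 3.17 to 5.82 in S588. The spots of control 1, control 2 and S539 therefore did not overlap each other or those of the other 5 arrays. On the first Rag1 probe, the spots of S539 lay at 5.23 and 5.67, those of controls 3 and 4 at 2.84 to 2.96 and those of the other exposed arrays at 2.75 to 2.88. The second Rag1 probe did not share this order, since its highest exposed spot was in S590. On the dim Rag2 probe, S588 had spots from 2.88 to 8.89 (SD 1.85) where the other arrays had SDs of 0.32 to 0.64. Spots of an array share its RNA and are not replicates of a condition.

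The size of the difference between the groups depended on controls 1 and 2. Leaving out both was added after these arrays were seen to be the highest, so that an upward shift of the difference was fixed by the choice, and it is given as a description. Of the 4 genes that were well above background on all 8 arrays, Dntt then differed by 0.80, Cd3e by 0.58 and Cd4 by 0.19, and Lck by -0.28. For Rag1, Rag2, Cd8a and Cd8b1, neither control 3 nor control 4 was well above background, and no direction against the exposed thyroids is read for them. The members' median difference of -1.82 was -1.08 without control 1 alone and -1.27 without control 2 alone. No member was called in any of these fits, in which limma called 40 of all genes without controls 1 and 2, and 0 without S539 too, where 3 exposed arrays were set against 2 controls.

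**Figure D3:**
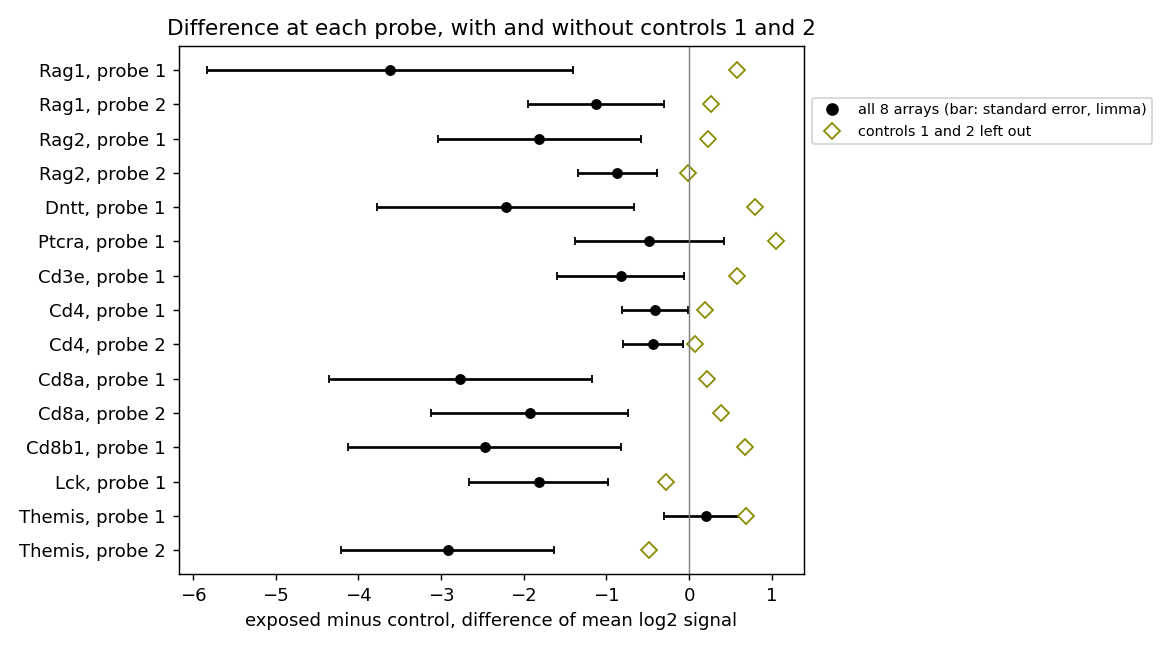
Difference of mean log2 signal, exposed minus control (horizontal axis), at the 15 probes of the 10 genes: black points with all 8 arrays, bars for the standard error of the limma fit, open diamonds without controls 1 and 2, which were left out because they were the highest. Diamonds of Rag1, Rag2, Cd8a, Cd8b1 and Themis rest on control signals not well above background and have no order. With all arrays 14 probes lie left of 0, and without the 2 controls Lck lies at -0.28 and Dntt at 0.80.

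Among the exposed thyroids S539 had the highest signal for 8 of the 10 genes, where it was the highest exposed array for 33.6% of all genes. It exceeded the mean of the other exposed arrays by a median of 1.12 over the members, beside 0.049 over all genes. That median was 0.65 with normexp background correction and 0.61 without background correction or in the deposited values. Where all 4 exposed arrays were well above background, the excess was 1.22 for Ptcra, 1.12 for Lck, 1.11 for Dntt, 0.47 for Cd4 and 0.40 for Cd3e. Rag1 was well above background in S539 alone of the exposed thyroids, and Cd8a in S539 and S588, so their excess over signals near background has no exact size. For 8 of the 10 genes the order of the top arrays was thus controls 1 and 2 and then S539, while S588 came before S539 for Rag2 and Themis. S539 was singled out after earlier results of these arrays had shown it apart for Rag1, and the members were picked with these values known. Nothing is therefore read from its shares and medians beside those of all genes. A single array against the others has no test.

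Controls 1 and 2 differed from each other as well. Control 1 was above control 2 for all 10 genes, by a median of 1.24 (0.22 to 1.81), while the median over all genes was -0.109. The excess lay between 1.17 and 1.36 for Rag1, Cd3e, Cd4, Cd8a and Cd8b1, but was 0.84 for Lck, 0.72 for Rag2, 0.43 for Dntt and 0.22 for Ptcra.

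The rest of the T lineage was described through 58 other genes in 4 lists. Limma called 2 of them, 1 in each direction, 56 did not pass, and 21 had an unadjusted p under 0.05. No share of all genes under that unadjusted p is given, so nothing is read from such counts here or in the lists below. Their median difference was -1.16, and controls 1 and 2 were the highest arrays for 35 of the 58, where the share over all genes was 5.7%. The higher gene was Notch3, a receptor of the Notch pathway that early thymocytes and the muscle cells of vessels use, at 12.43, 12.35, 12.30 and 12.08 in the controls and 13.76, 13.19, 13.22 and 13.36 in the exposed thyroids (difference 1.09, SE 0.17, adjusted p = 0.0364 with limma). The lower was Cxcr6, a chemokine receptor of tissue T cells and natural killer T cells, at 9.25, 9.61, 9.19 and 8.79 against 7.73, 8.03, 7.87 and 8.12 (difference -1.27, SE 0.20, adjusted p = 0.0364 with limma). In both genes the groups did not overlap and controls 1 and 2 did not stand apart. With 1 array left out, limma called 1 of the 58 genes (without control 4) or 0 (without any of the other 7).

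By stage, controls 1 and 2 were the highest arrays for 7 of 12 genes of the early T lineage, 7 of 12 of the double-positive stage and selection, 15 of 19 of the receptor complex and signalling, and 6 of 15 of peripheral T cells. The median differences between the groups were -1.23, -1.31, -1.34 and -0.51 in that order, and -0.23, -0.02, -0.11 and -0.23 without controls 1 and 2. Among early genes, Tcf7, a transcription factor that commits cells to the lineage, had 12.11, 11.11, 7.27 and 6.97 in the controls and 7.91, 6.54, 6.74 and 6.67 in the exposed thyroids, with controls 1 and 2 and then S539 on top, as for Lck. Il7r, the receptor for a survival cytokine, did not follow it, at 7.60, 7.92, 6.84 and 6.50 against 4.85, 5.69, 4.99 and 5.51 (difference -1.96, SE 0.36, adjusted p = 0.0642 with limma), where every control was above every exposed array.

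Of the selection genes, Cd5, which damps receptor signals, had 12.63, 11.29, 6.98 and 7.44 in the controls and 8.16, 7.00, 7.14 and 6.79 in the exposed thyroids. Ccr9, the receptor through which thymocytes sense Ccl25, had 12.48, 10.86, 7.73 and 7.02 against 7.78, 7.11, 6.97 and 7.23. Cd3d, a partner of Cd3e, had the most negative difference of the 58 genes, at -3.08 (SE 1.60, adjusted p = 0.48 with limma), with 12.99, 11.67, 6.76 and 6.10 in the controls and 7.92, 5.59, 6.20 and 5.47 in the exposed thyroids.

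Markers of T cells outside the thymus were less uniform. Ccr7, a homing receptor of naive T cells and of late thymocytes, had 10.31, 9.05, 7.36 and 7.23 in the controls and 7.76, 6.45, 6.74 and 7.17 in the exposed thyroids. Foxp3, the factor of regulatory T cells, had 5.78, 5.69, 5.22 and 5.40 against 4.42, 6.47, 5.30 and 5.07. It was well above background in only 1 control and 2 exposed thyroids, so no order of the arrays is read from it. S1pr1 and Klf2, which mark thymocytes about to leave and circulating T cells but are also endothelial genes, were lowest in control 2, at 9.74 and 11.85, and differed by 0.77 and 0.68 (adjusted p = 0.217 and 0.228 with limma).

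Most genes of the thymic epithelium, the stroma in which thymocytes grow and no part of a T cell, were high in the same 2 controls. Of the 10 genes, 7 had controls 1 and 2 as the highest arrays, 0 were called by limma and 3 had an unadjusted p under 0.05, with a median difference of -1.19 (-0.34 without controls 1 and 2). Tbata, a gene of thymic stroma, had 13.44, 12.90, 7.23 and 8.62 in the controls and 8.68, 6.94, 6.97 and 7.43 in the exposed thyroids. Ccl25, the chemokine that draws Ccr9-bearing cells, had 14.07, 13.55, 9.13 and 10.24 against 10.26, 9.27, 9.76 and 9.38. Prss16, a protease of cortical epithelium, had 11.57, 12.13, 7.35 and 9.11 against 7.37, 6.08, 7.89 and 7.51. Foxn1, the factor that specifies thymic epithelium, had 7.32 and 7.47 in controls 1 and 2 and 5.69 to 6.68 on the other arrays, and Psmb11, the proteasome subunit of cortical cells, 8.61 and 7.84 against 4.46 to 7.17. Aire, the factor of medullary epithelium, was not among the 7, at 5.76, 5.88, 5.69 and 5.29 in the controls and 6.25, 6.68, 6.30 and 6.69 in the exposed thyroids. Dll4, well above background on every array, was not among the 7 either. It had 7.61, 8.07, 8.71 and 8.84 in the controls and 8.01, 7.56, 8.08 and 7.70 in the exposed thyroids. Ly75, also not among the 7, was well above background on no array. Whether tissue other than thyroid contributed to the members' signals was not tested.

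Set on the mean of their centred log2 signals, the members had scores of 3.43, 2.38, -1.21 and -1.36 in controls 1 to 4 and -0.04, -0.85, -1.25 and -1.11 in S539, S588, S589 and S590. The thymic epithelium list had 1.74, 1.68, -0.64 and -0.29 in the controls and -0.27, -1.03, -0.70 and -0.49 in the exposed thyroids. Both lists were high in controls 1 and 2, but the gap between these controls was 1.24 by median over the members and 0.17 over the epithelial genes, where control 1 was the higher for 5 of 10. That 0.17 includes Aire, Dll4 and Ly75, for which these controls were not the highest. In the other 7 genes the gap was 0.77 for Psmb11, 0.54 for Tbata, 0.52 for Ccl25, 0.47 for Krt5, 0.46 for Pax1, -0.15 for Foxn1 and -0.55 for Prss16. S539, next to these controls for the members, was the highest exposed array for 3 of the 10 epithelial genes. Among those is Ly75, whose signals, well above background on no array, have no order.

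**Figure D4:**
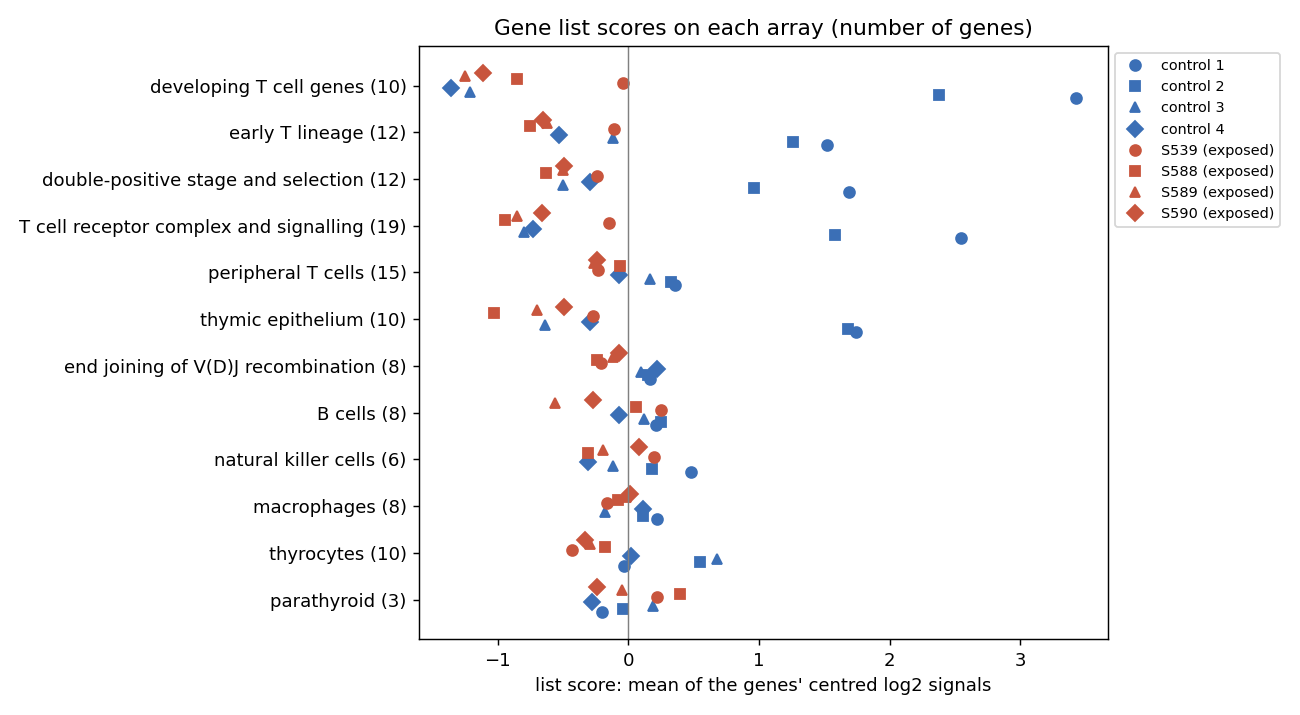
List score (horizontal axis, the mean over a list's genes of log2 signals centred on each gene's mean over the arrays) for each of the 8 arrays, with the number of genes in brackets. Controls 1 and 2 lie far to the right for the T lineage lists other than peripheral T cells and for thymic epithelium, and among the other arrays for parathyroid. With S539 they are also the highest arrays for B cells (0.21, 0.25 and 0.25 in S539) and natural killer cells (0.48, 0.18 and 0.20 in S539), at smaller scores.

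**Figure D5:**
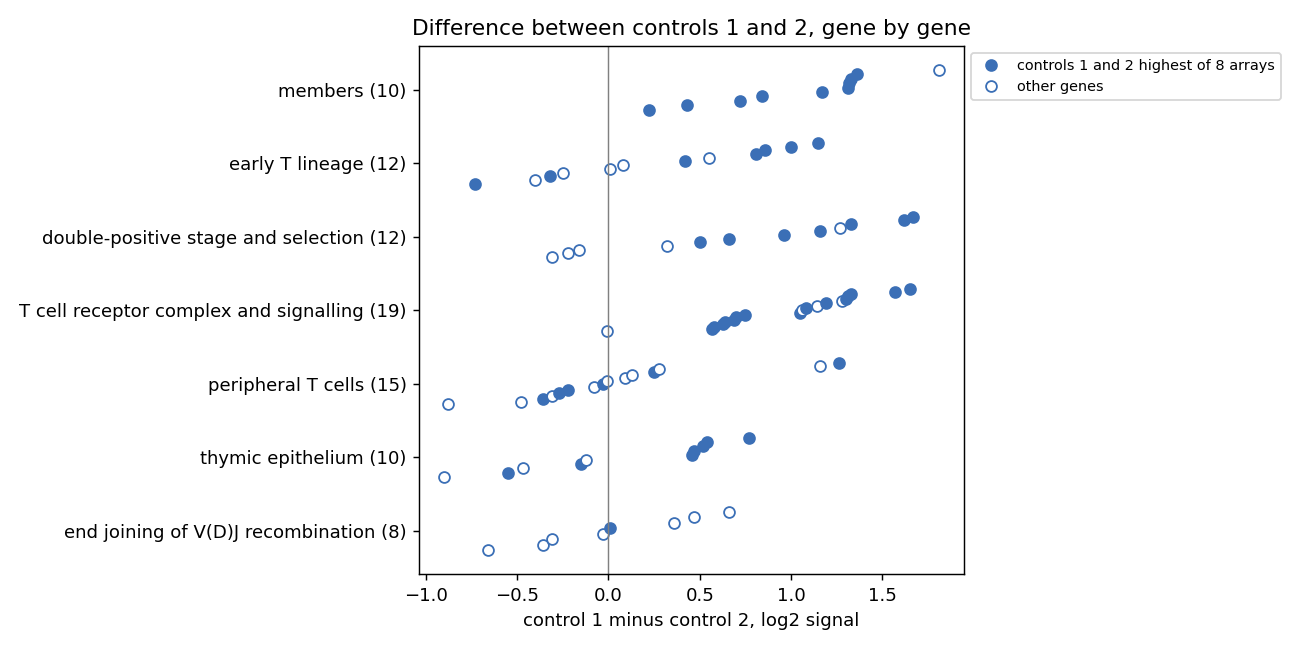
Control 1 minus control 2 in log2 signal (horizontal axis) for each gene of 7 lists, 1 point per gene, filled where these controls are the highest of the 8 arrays. The 10 members lie between 0.22 and 1.81, the 10 thymic epithelium genes between -0.90 and 0.77.

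The 8 genes of end joining, which close the breaks that Rag1 and Rag2 make but serve every cell, did not follow the members. Controls 1 and 2 were the highest arrays for 1 of the 8, and the list scores ran from 0.10 to 0.22 in the controls and from -0.24 to -0.07 in the exposed thyroids. Limma called 0 of the 8, 4 had an unadjusted p under 0.05, and all 8 differences were negative, between -0.69 and -0.01. Xrcc6, which encodes a Ku subunit that binds broken ends, had the largest, with 13.40, 13.39, 12.84 and 12.85 in the controls and 12.09, 12.66, 12.60 and 12.36 in the exposed thyroids (difference -0.69, SE 0.21, adjusted p = 0.241 with limma).

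Markers of 13 other cell types, 77 genes, gave the same 2 controls as the highest arrays for 7 genes. Limma called 0 of the 77 higher and 2 lower, with 12 at an unadjusted p under 0.05. These were Slc5a5, the iodide transporter that also takes up 99mTcO4- (difference -3.53, SE 0.41, adjusted p = 0.0137 with limma), and Clec9a, a receptor of cross-presenting dendritic cells, which was well above background in every control and no exposed thyroid (controls at least 5.61-fold above the exposed bound, adjusted p = 0.00746 with limma). Leaving out an array left 1 or 2 of the 77 called. B cell scores ran from -0.07 to 0.25 in the controls and from -0.56 to 0.25 in the exposed thyroids, with 0.21 in control 1, 0.25 in control 2 and 0.25 in S539 as the highest. Developing B cells use Rag1 and Rag2 too, and their part in these signals was not tested. Parathyroid scores ran from -0.28 to 0.19 and from -0.24 to 0.40, and thyrocyte scores from -0.03 to 0.68 and from -0.43 to -0.18. The thyrocyte score is a mean that includes Slc5a5. Over the 10 thyrocyte genes the median difference was -0.3, with 8 negative and 2 positive.

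Among the genes whose log2 signals followed the members' mean most closely over the 8 arrays, by the root mean square of the difference after centring, out of 17661 genes well above background on at least 3 arrays, were Zap70 and Myb (0.37), Lef1 and Ptprcap (0.38), Arl5c and Cd6 (0.39), Lat and Ccr9 (0.40) and Tcf7 (0.44). Of these, Ptprcap and Arl5c stood in none of the T lineage lists. Zap70, the kinase that Lck activates, had 12.14, 10.84, 8.10 and 7.76 in the controls and 8.48, 7.39, 7.08 and 7.20 in the exposed thyroids. Ptprcap, a partner of the phosphatase CD45, had 12.69, 11.57, 8.87 and 8.96 against 9.25, 8.63, 8.48 and 8.54. Ccl25 stood 15th by this measure, Krt5 89th, Pax1 96th and Tbata 118th. Over all genes, 75 had controls 1 and 2 both at least 2 log2 units above every other array, and 5 of them were members (Rag1, Dntt, Cd8a, Cd8b1 and Lck), 15 other T lineage genes and 3 thymic epithelium genes. The members and lists were chosen with earlier results of these arrays known, so nothing is read from these counts.

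The windows before the members' start sites were read for letters bound by factors of the lineage, as a description of sequence only. RefSeq windows (GRCm38.p6, 250 bases before the start and 50 after) were at hand for 8 of the 10 genes in 10 windows, with Cd4 and Cd8b1 missing. CAGCTG, an E-box, was in windows of Rag1, Ptcra and Cd8a, where 16.3% of 32851 windows held it, and CAGGTG, another E-box, in those of Rag1, Cd3e and Lck (20.2% of all). TGTGGT, a Runx core, was in windows of Rag1 and Lck (16.8% of all). CTTTGA, a Tcf/Lef core (16% of all), and CCGGAA, an Ets core (14.9% of all), were in none of the 10 windows. Both strands were searched, and these motifs do not overlap each other in the sequences printed. The Rag1 and Ptcra windows are shown up to the start site because they hold the most matches, with the matched letters in capitals, at chr2:101649533-101649782 and chr17:46763713-46763962 of GRCm38.p6, both on the minus strand.
Rag1: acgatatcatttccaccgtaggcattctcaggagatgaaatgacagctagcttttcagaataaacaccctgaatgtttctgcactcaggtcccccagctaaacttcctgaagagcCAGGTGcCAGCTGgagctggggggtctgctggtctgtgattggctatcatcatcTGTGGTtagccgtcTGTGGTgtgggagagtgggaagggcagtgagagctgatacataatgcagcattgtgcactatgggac
Ptcra: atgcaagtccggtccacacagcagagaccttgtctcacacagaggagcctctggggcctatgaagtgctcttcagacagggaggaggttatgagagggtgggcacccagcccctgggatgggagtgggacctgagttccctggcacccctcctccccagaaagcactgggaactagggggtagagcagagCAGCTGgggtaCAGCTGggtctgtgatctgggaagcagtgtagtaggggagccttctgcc
In the Rag1 window the E-boxes lie next to each other and both Runx cores closer to the start, and in the Ptcra window both E-boxes of the stretch shown lie close to the start. A match describes letters and not a bound site.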

How the data were processed

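Arrays of 4 control and 4 exposed thyroids were analysed. The authors extracted spot intensity with Feature Extraction 10.7.3.1, and these deposited intensity values were used. The authors also deposited a table of log2 values, normalized by quantiles in limma per the methods, which served as an alternative. Here the background-subtracted intensity was log2-transformed, normalized by quantiles over the spots that are no controls and averaged per probe. The fit used limma 3.58.1 (lmFit, eBayes, no covariate) in R 4.3.3, with Benjamini-Hochberg adjustment over 55681 probes and a threshold of 0.05, and was tested on simulated data. Precision is limited by having 4 arrays a group.

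The members, gene lists and rules were chosen with earlier results of these data known. Named genes were the members with all probes, up to 3 genes of largest difference and the first genes of each list, and the 10 genes most like the members, 1 of which is not reported here. Il7r, Foxp3, S1pr1, Klf2, Aire, Dll4, Ly75, Krt5 and Pax1 were named after their values were seen. Alternatives were 75th percentile scaling, normexp with offset 50, the deposited values, no background correction, only probes above background, the mean of all probes, leaving out outlier spots, a variance trend, array weights, the methods' t-test and leaving out each array. Probe positions are in mm9 and promoter windows in GRCm38.p6, and no position was converted.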

Additional observations from a re-analysis of the deposited data

Results flagged for a closer look

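Of 60 groups of 4 arrays examined, over the 10 genes and the list scores, 5 held an array far from the other 3, where chance gives about 3. The members were picked with these values known, and S539 had already been seen apart for Rag1, so nothing is read from this count. Rag1 was well above background in S539 alone of the exposed thyroids, so the narrow spread of the other 3 is one of background signals. Rag1 in S539 was at 5.45 beside 2.80 to 2.86 in the other exposed thyroids, and Cd8a in S539 at 6.61 beside 4.57 to 4.78. The coding Themis probe in control 1 was at 6.50 beside 4.52 to 4.70 in the other controls. The score of peripheral T cell genes in S588 was -0.06 beside -0.26 to -0.23 in the other exposed thyroids. The neutrophil score in control 1 was -0.83 beside -0.53 to -0.49 in the other controls. The causes were not tested.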

How the results depend on the processing

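The members' median difference of -1.82 stayed negative under 7 other settings (-1.82 to -0.83, the last over the 5 members that passed the filter on dim probes) and without each array in turn (-2.53 to -1.08), and no member was called under any alternative. Without controls 1 and 2, left out because they were seen to be the highest, which fixes an upward shift, it was 0.58, and without S539 too 0.34. In the same order, the measured values that changed sign were 0.23 and 0.35 for Rag2, 0.80 and 0.52 for Dntt, 1.05 and 0.74 for Ptcra, 0.58 and 0.48 for Cd3e, 0.19 and 0.07 for Cd4, and 0.68 and 0.33 for Cd8b1, and without controls 1 and 2 alone 0.58 for Rag1 and 0.21 for Cd8a, of which those of Rag1, Rag2, Cd8a and Cd8b1 rest on control signals not well above background and show no direction. Themis turned to -1.36 with the mean of its probes. Without one array, Ptcra lay between -1.11 and 0.07, positive without control 1, and Themis between 0.00 and 0.66. The S539 excess of 1.12 was 0.65 with normexp and 0.61 without background correction and in the deposited values, and 0.94 to 1.12 without an array. Of the 58 other T lineage genes, 4 were called with the filter on dim probes and with array weights, 0 with the methods' t-test, 0 without controls 1 and 2, with or without S539, and 0 to 1 without an array. Of the 77 genes of other cell types, 4 were called with normexp, without background correction and in the deposited values, 0 without controls 1 and 2, with or without S539, and 1 to 2 without an array. Over all genes, 252 were called, 175 to 565 under other settings and 63 to 257 without an array. Thymic epithelium and end joining genes had 0 calls in every fit. The cause was not tested. No paired analysis was possible because controls and exposed thyroids share no replicate numbers. Signals not well above background, such as those of Rag1 outside controls 1 and 2 and S539, have no order.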
